A study of Homo sapiens with 18 samples.

Results

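Oxidative phosphorylation genes encoded in the nucleus were examined in K562 cells after knockdown of circPCMTD1, a circular product of PCMTD1. Members were taken by symbol: names beginning NDUF, UQCR or ATP5, the SDHA to SDHD genes, the COX4I, COX5, COX6, COX7 and COX8 families, and CYC1, without pseudogenes, antisense genes and divergent transcripts. Of 106 matching symbols 7 were left out on those grounds, which gave 99 members among the 27781 genes of the deposited table. They comprised 37 complex I subunits, 8 NDUFAF complex I assembly factors, and 4, 10, 19 and 19 genes of complexes II, III, IV and V in that order, with 2 read-through loci. NDUFA4 and NDUFA4L2 were placed with complex IV, and the inhibitor gene ATP5IF1 with complex V.

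K562 is a human chronic myeloid leukemia line carrying the BCR-ABL1 fusion. The knockdown cells received antisense gapmers against the backsplice junction of circPCMTD1, and the scrambled cells received control gapmers of scrambled sequence. The labels' protocols and treatment fields name gapmers, which pair with RNA and recruit RNase H to cleave it, while the sample descriptions say siRNA; gapmers are taken here. Both groups were cultured in the same medium and harvested 48 hours after transfection, and total RNA depleted of ribosomal RNA was sequenced. Each group had 3 biological replicates of 3 technical libraries, which makes 18 libraries from 1 cell line.

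Respiratory complexes I to IV pass electrons from NADH and succinate to oxygen, and complexes I, III and IV pump protons across the inner mitochondrial membrane. Complex V, the ATP synthase, uses the returning protons to make ATP. Most subunits are encoded in the nucleus and imported, while a few hydrophobic core subunits of complexes I, III, IV and V are encoded in mitochondrial DNA, so complexes depend on both genomes. Many of the nuclear genes are active in nearly all cells, and some subunits of complex IV have forms limited to particular tissues or conditions.

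Library totals ran from 19118533 to 29432699 counts and the sums per biological replicate from 63851576 to 76087774. PCMTD1, the host of the targeted RNA, was at 12.6, 11.7 and 12.5 CPM (counts scaled to library size) in knockdown samples and at 20.03, 19.8 and 21.9 CPM in scrambled samples, a log2 fold change of -0.74 (SE 0.052, edgeR adjusted p = 7.57e-10). The gene-level count adds circular and linear RNA. The label calls the cells lymphoblasts. All 12 erythroid and K562 markers examined were expressed, with summed levels of 5621 to 5801 CPM in knockdown and 5242 to 5362 CPM in scrambled samples. By edgeR 4 of the 12 rose (HBZ, LMO2, GFI1B and HBE1, with log2 fold changes of 0.13 to 0.30) and 2 fell (TAL1 and ALAS2, -0.13 and -0.12). Of all genes tested 11.1% rose and 7.49% fell. Of 14 lymphoid markers 5 passed the count filter, MS4A1 and DNTT were at 0 in all libraries, and the 14 summed to 16.5 to 17.5 CPM in knockdown and 12.7 to 13.8 CPM in scrambled samples. CD3D averaged 6.43 ± 0.111 CPM in knockdown and 4.67 ± 0.256 CPM in scrambled samples (SD, n = 3 each), and RAG1 averaged 9.08 ± 0.621 and 7.60 ± 0.249 CPM in the same order. Both rose in edgeR's quasi-likelihood test (adjusted p = 7.63e-05 and 0.00654). They were among 3 lymphoid markers called raised. All 5 lymphoid markers tested lay above 0, where 49.2% of all genes tested lay below 0. The log2 fold changes of these 5 were 0.14 to 1.25. The part of these differences in the results below was not tested. Knockdown libraries 3_2 and 3_3 (replicate 3, technical libraries 2 and 3) stood apart by transcript GC content. The rank correlation with GC content of their deviation from the mean of the 9 knockdown libraries was -0.494 and -0.566, against -0.376 to 0.378 in the other libraries, each set against its own group.

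Nuclear oxidative phosphorylation genes changed little as a whole. Of 99 members 92 passed the count filter and were tested together with all other genes, 15678 in total, by edgeR's quasi-likelihood test with Benjamini-Hochberg adjustment. At an adjusted p below 0.05, 6 members fell in knockdown cells (6.52% of those tested, where 7.49% of all genes tested fell) and 1 rose (1.09%, where 11.1% of all genes rose). In this fit shares lowered were thus close among members and all genes, while the share raised was smaller among members. Neither comparison of shares was tested. The 6 that fell were the complex I accessory subunits NDUFA6 and NDUFA10, the complex III subunit UQCRB, and the ATP synthase subunits ATP5MC1, ATP5F1A and ATP5F1B. The gene that rose was ATP5IF1, which encodes the inhibitory factor of ATP synthase. In bulk RNA, fewer cells expressing a gene and less RNA per cell cannot be told apart.

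Over the 92 members tested the median log2 fold change was -0.014, beside 0.0022 over all genes tested, and 55 members lay below 0 (49.2% of all genes did). The 3 knockdown samples lay all below the 3 scrambled samples for 15 members (16.3%, where 16.5% of all genes did so) and all above them for 12 (13.0%, where 18.1% did so). Members together took 0.878%, 0.876% and 0.880% of counts in knockdown samples and 0.892%, 0.890% and 0.884% in scrambled samples. Summed, members reached 8764, 8740 and 8736 CPM in knockdown samples, all below the 8984, 8939 and 8854 CPM of scrambled samples. ATP5F1B alone gave 13.4% of the members' CPM in knockdown and 13.8% in scrambled cells.

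**Figure D1:**
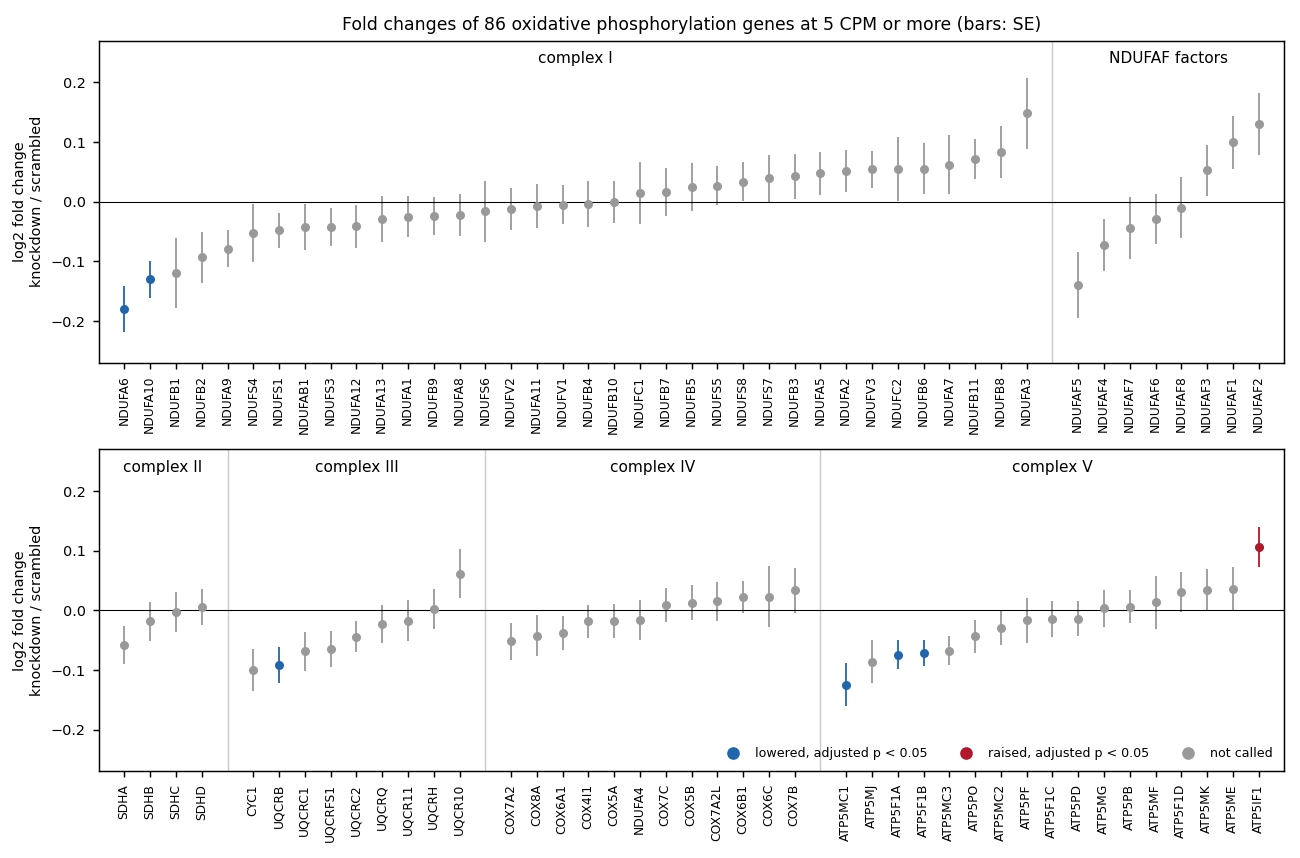
Log2 fold change (knockdown over scrambled, y axis) of 86 members with a mean of 5 CPM or more, grouped by complex along the x axis and sorted within each group; bars are standard errors from edgeR, and colour marks genes that fell, rose or passed in neither direction. The values lie between -0.18 (NDUFA6) and 0.15 (NDUFA3), and 6 genes are marked as lowered and 1 as raised.

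How many members passed rested on the samples used, and so did the number over all genes. Without knockdown libraries 3_2 and 3_3, 20 members fell (21.7%, where 15.5% of all genes did) and 6 rose (6.52%, where 16.5% did), with a median of -0.018. With a correction for GC content 18 fell (19.6%, where 17.0% of all genes did) and 4 rose (4.35%, where 15.2% did), with a median of -0.015. Leaving out knockdown replicate 1, 2 or 3 gave 7, 4 or 20 lowered and 2, 0 or 5 raised members. Over all genes the same fits gave 1023, 807 or 2280 lowered and 1454, 1257 or 2482 raised. Leaving out scrambled replicate 1, 2 or 3 gave 2, 2 or 3 lowered and 0, 0 or 0 raised members. Over all genes these gave 628, 623 or 738 lowered and 1127, 1190 or 1241 raised. Between 15885 and 15955 genes were tested in these fits. By DESeq2, 8 of 90 members with an adjusted p fell (8.89%, where 8.16% of all genes did) and 1 rose (9.57% of all genes did).

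The 300 bases around the start of 5 of the genes that passed are shown here, since these genes moved and their promoters can be compared. The sequences are RefSeq's for GRCh38.p14 and run 5′ to 3′ on the gene's strand, from 250 bases before the first listed transcription start to 50 after it. Their positions are chr22:42090723-42091022 (minus strand) for NDUFA6, chr2:240025293-240025592 (minus) for NDUFA10, chr17:48892537-48892836 (plus) for ATP5MC1, chr18:46104178-46104477 (minus) for ATP5F1A and chr1:28235874-28236173 (plus) for ATP5IF1. Capitals mark matches to 5 motifs searched on both strands: GCGC and TGCGC with any 1 base between them for NRF1, CCGGAAG for ETS factors, AANATGGCG for YY1, GGGCGG for SP1 and TATAAA for a TATA box.
NDUFA6: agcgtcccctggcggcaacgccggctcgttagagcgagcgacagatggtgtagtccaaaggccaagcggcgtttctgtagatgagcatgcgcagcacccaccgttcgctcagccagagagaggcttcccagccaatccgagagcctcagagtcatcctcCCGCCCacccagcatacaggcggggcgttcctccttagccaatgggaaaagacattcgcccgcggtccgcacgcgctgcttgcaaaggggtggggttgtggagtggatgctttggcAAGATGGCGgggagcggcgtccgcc
NDUFA10: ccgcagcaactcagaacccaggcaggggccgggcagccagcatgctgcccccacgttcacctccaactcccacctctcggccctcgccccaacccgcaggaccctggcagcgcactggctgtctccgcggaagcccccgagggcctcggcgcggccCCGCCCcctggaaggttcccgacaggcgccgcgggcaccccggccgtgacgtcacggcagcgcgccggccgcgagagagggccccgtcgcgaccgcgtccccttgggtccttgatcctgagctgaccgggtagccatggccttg
ATP5MC1: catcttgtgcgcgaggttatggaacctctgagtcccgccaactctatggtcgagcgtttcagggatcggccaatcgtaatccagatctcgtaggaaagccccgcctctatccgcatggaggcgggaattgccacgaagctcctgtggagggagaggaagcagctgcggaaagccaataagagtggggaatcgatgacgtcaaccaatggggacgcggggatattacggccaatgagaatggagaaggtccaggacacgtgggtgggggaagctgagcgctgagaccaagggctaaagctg
ATP5F1A: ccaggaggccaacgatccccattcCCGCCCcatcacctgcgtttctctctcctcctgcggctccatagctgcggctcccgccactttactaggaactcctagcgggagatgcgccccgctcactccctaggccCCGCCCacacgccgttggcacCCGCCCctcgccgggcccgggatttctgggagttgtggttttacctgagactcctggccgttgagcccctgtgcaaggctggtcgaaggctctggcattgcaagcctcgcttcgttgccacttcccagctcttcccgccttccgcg
ATP5IF1: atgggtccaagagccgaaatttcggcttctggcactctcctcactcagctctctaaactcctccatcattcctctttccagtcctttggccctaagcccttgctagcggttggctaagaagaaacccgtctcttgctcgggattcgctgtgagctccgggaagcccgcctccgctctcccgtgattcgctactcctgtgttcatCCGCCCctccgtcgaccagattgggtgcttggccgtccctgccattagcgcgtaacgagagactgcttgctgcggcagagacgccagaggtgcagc

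The capitals in NDUFA6 are an SP1 match read on the opposite strand 91 to 86 bases before the start and a YY1 match 26 to 34 bases after it. ATP5F1A held 3 SP1 matches, NDUFA10 and ATP5IF1 held 1 each, and none of the 5 motifs was found in this window of ATP5MC1. ATP5F1B and UQCRB are named without a sequence. Promoters of 78 members were matched. The NRF1 motif was in 23.1% of them, against 11.3% of 11523 tested genes and 6.28% of all 27305 promoters. The YY1 motif was in 20.5% of members' promoters, 6.53% of tested genes' and 3.37% of all, and the ETS motif in 26.9%, 18.6% and 10.7% in that order. SP1 matches were in 57.7%, 67.6% and 44.6%. TATAAA was in 8.97% of members' promoters and 6.23% of tested genes', and in 3264 of all 27305 promoters, a larger share than among members. Among complexes, the YY1 motif was in 10 of 32 complex I promoters, 1 of 3 of complex II, 3 of 7 of complex III and 1 of 14 in each of complexes IV and V. The NRF1 motif was in 6 of 32, 2 of 3, 4 of 7, 1 of 14 and 4 of 14 promoters of complexes I to V in that order. None of the matches printed above overlaps another. A match describes these letters and is not a binding site.

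Complex I, which oxidises NADH and reduces ubiquinone, had 2 accessory subunits lowered and none raised among 37 tested genes. Of all genes tested 7.49% were lowered and 11.1% raised. The median log2 fold change of complex I was -0.0046. At an unadjusted p below 0.05 edgeR found 2 of its genes raised, and DESeq2 called none raised. NDUFA6 encodes an accessory subunit that anchors an acyl carrier protein on the complex. It was at 33.5, 31.5 and 33.8 CPM in knockdown samples and 37.8, 37.4 and 36.7 CPM in scrambled samples. All knockdown values lay below all scrambled values, with means of 32.9 ± 1.24 and 37.3 ± 0.577 CPM (SD, n = 3 each) in knockdown and scrambled cells, and a log2 fold change of -0.18 (SE 0.038, edgeR adjusted p = 0.00183).

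NDUFA10, an accessory subunit with a fold related to nucleoside kinases, was at 76.5, 77.1 and 78.4 CPM in knockdown samples and 85.4, 84.8 and 83.6 CPM in scrambled samples. The groups did not overlap, and the log2 fold change was -0.13 (SE 0.030, edgeR adjusted p = 0.00421). NDUFA6 and NDUFA10 passed under all 18 alternative ways of processing, with adjusted p of at most 0.0203 and 0.0356. NDUFA6 shared 1.8% of its exon bases with NDUFA6-DT on the other strand, which had 1016 counts in all knockdown and 1086 in all scrambled libraries.

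Catalytic core subunits carry the NADH site and iron-sulfur clusters of complex I. NDUFS1, a core subunit with iron-sulfur clusters, was at 125.3, 125.2 and 130.8 CPM in knockdown and 131.0, 132.5 and 130.7 CPM in scrambled samples, which overlapped. Its log2 fold change was -0.048 (95% interval -0.11 to 0.013, edgeR adjusted p = 0.280). NDUFV1, which holds the NADH site, was at 188.2, 186.7 and 170.8 CPM in knockdown and 184.3, 182.6 and 180.5 CPM in scrambled samples, which also overlapped (-0.0046, adjusted p = 0.946). Of 11 NDUFB subunits, accessory proteins of the membrane arm, none passed by edgeR or DESeq2, 1 lower and 1 higher had an unadjusted p below 0.05 in edgeR, and 5 lay below 0.

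The largest positive value of complex I was in NDUFA3, a small accessory subunit of the membrane arm, at 10.7, 11.0 and 11.3 CPM in knockdown and 10.4, 10.2 and 9.10 CPM in scrambled samples. The ranges did not overlap, but the log2 fold change of 0.15 (SE 0.059) had an adjusted p of 0.0875. Per kilobase of exon, NDUFS5, an accessory subunit at the foot of the complex, had the highest level in complex I, 94.2 CPM per kb in knockdown and 92.4 in scrambled cells. NDUFA3 had the lowest, 4.44 in knockdown and 3.999 CPM per kb in scrambled cells. Both ranks rested on the length used. With the longest annotated transcript as length, NDUFS5 was at 92.4 and NDUFA3 at 10.3 CPM per kb in scrambled cells. Other complex I genes then lay above NDUFS5 and below NDUFA3.

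The 8 NDUFAF genes encode factors that help build complex I and are absent from the finished enzyme. None passed in edgeR or DESeq2, and at an unadjusted p below 0.05 edgeR found 1 lower and 2 higher. NDUFAF2, which acts late in assembly, was at 13.4, 14.8 and 14.3 CPM in knockdown and 12.9, 12.9 and 13.0 CPM in scrambled samples (log2 fold change 0.13, adjusted p = 0.0831). The knockdown values lay above all scrambled values. With only the first technical library of each replicate its log2 fold change was -0.0005. NDUFAF5, which modifies the NDUFS7 subunit during assembly, was at 12.9, 12.5 and 14.3 CPM in knockdown and 14.3, 15.3 and 14.2 CPM in scrambled samples, which overlapped (-0.14, adjusted p = 0.0878). Levels ran from 1.84 CPM per kb (NDUFAF5) to 14.4 (NDUFAF4) in knockdown and from 2.02 to 15.2 in scrambled cells for the same genes.

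Complex II, succinate dehydrogenase, also acts in the tricarboxylic acid cycle and has no mitochondrially encoded subunit. Neither edgeR nor DESeq2 called any of its 4 genes, and 0 had an unadjusted p below 0.05. SDHA, the flavin-bearing subunit, was at 195.1, 188.8 and 178.1 CPM in knockdown and 199.6, 193.6 and 191.8 CPM in scrambled samples (log2 fold change -0.058, 95% interval -0.12 to 0.0073). SDHB, the iron-sulfur subunit, and the membrane anchors SDHC and SDHD had values of -0.018, -0.0027 and 0.0062, and each of these intervals lay within -0.086 and 0.069. SDHB was highest per kilobase, 46.4 CPM per kb in knockdown and 47.0 in scrambled cells, and SDHC lowest at 6.43 and 6.44.

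Complex III moves electrons from ubiquinol to cytochrome c. Of its 10 tested genes 1 fell and 8 lay below 0, where 7.49% and 49.2% of all genes did. The median of the 10 was -0.033. In 4 of them all knockdown values lay below all scrambled values, as in 16.5% of all genes. None rose by edgeR or DESeq2, nor at an unadjusted p below 0.05. UQCRB, a small subunit near a ubiquinone site, was at 94.8, 97.6 and 96.7 CPM in knockdown and 102.7, 101.2 and 104.4 CPM in scrambled samples. The groups did not overlap, and the log2 fold change was -0.092 (SE 0.030, edgeR adjusted p = 0.0351). The call was lost on leaving out knockdown replicate 1 (adjusted p = 0.121) or 2 (0.0614), or scrambled replicate 1 (0.116), 2 (0.0867) or 3 (0.165), and over all 18 alternatives p ran from 2.89e-05 to 0.165.

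The 4 core and catalytic subunits of complex III all lay below 0 without passing in edgeR; 3 had an unadjusted p below 0.05, and DESeq2 called 1, CYC1. CYC1, cytochrome c1, was at 161.7, 163.0 and 146.0 CPM in knockdown and 172.6, 164.0 and 167.9 CPM in scrambled samples, with the lowest value in knockdown replicate 3. Its log2 fold change was -0.10 (SE 0.035, adjusted p = 0.0525), and -0.051 (adjusted p = 0.0416) without knockdown replicate 3. It also passed with knockdown replicate 1 (adjusted p = 0.0289) or 2 (0.0320) left out, and in 12 of 18 alternatives in all; over the 18, adjusted p in edgeR, DESeq2 or limma ran from 1.41e-07 to 0.238. UQCRFS1, the Rieske iron-sulfur protein, averaged 86.1 ± 0.653 CPM in knockdown and 90.1 ± 1.07 CPM in scrambled cells (-0.065, adjusted p = 0.139). The core proteins UQCRC1 and UQCRC2 were at -0.069 (adjusted p = 0.159) and -0.044 (adjusted p = 0.261). The largest positive value was in UQCR10, a small subunit, at 0.062 (adjusted p = 0.332). In complex III 5 genes fell once knockdown libraries 3_2 and 3_3 were left out (15.5% of all genes did). With GC correction 5 also fell (17.0% of all genes did).

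UQCRH, the hinge protein, had the highest level of the complex, 157.0 CPM per kb in knockdown and 156.8 in scrambled cells, and UQCRB the lowest at 5 CPM or more, 9.92 and 10.6. UQCRHL, a copy closely related to UQCRH, was listed at 1.01 and 1.02 CPM per kb, and reads of such copies may be divided between them.

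**Figure D2:**
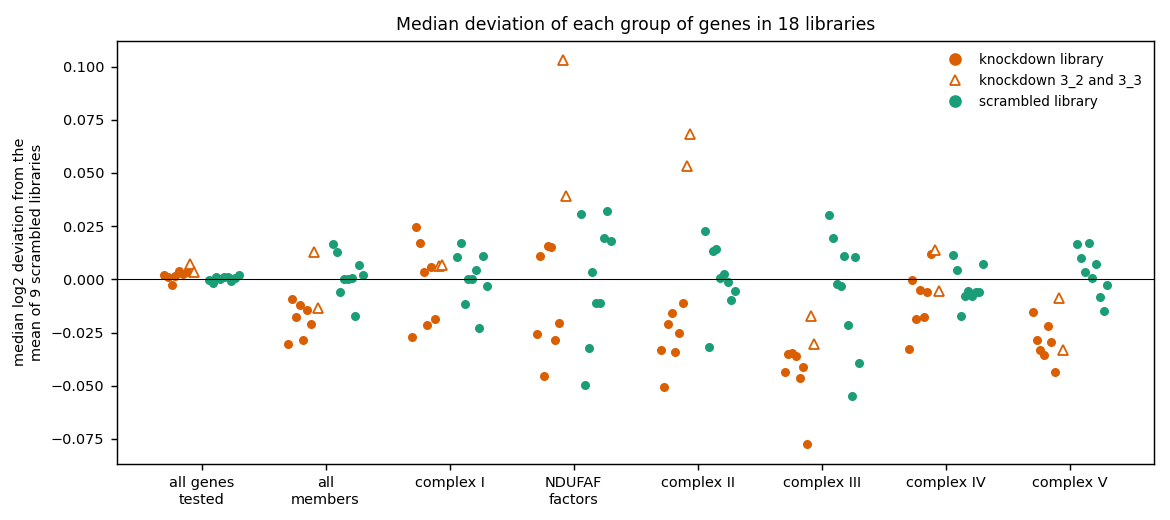
Median log2 deviation of each gene group (x axis) from the mean of the 9 scrambled libraries (y axis), 1 point per library, knockdown left of scrambled. All 9 knockdown libraries lie below 0 for complex III (-0.078 to -0.017) and for complex V (-0.043 to -0.0089), while scrambled libraries run from -0.055 to 0.030 and from -0.015 to 0.017.

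By library, the complex III median deviation lay between -0.078 and -0.017 in the 9 knockdown libraries, and between -0.055 and 0.030 in the 9 scrambled libraries, so that the groups overlapped. For complex V it lay between -0.043 and -0.0089 in knockdown and between -0.015 and 0.017 in scrambled libraries, which also overlapped. Complex II was at 0.053 and 0.069 in knockdown libraries 3_2 and 3_3 and at -0.051 to -0.011 in the other knockdown libraries. The NDUFAF factors were at 0.10 and 0.039 in the same 2 libraries. The 3 technical libraries of a replicate share their source.

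Complex IV, cytochrome c oxidase, passes electrons to oxygen. Neither edgeR nor DESeq2 called any of its 14 tested genes, and 0 had an unadjusted p below 0.05. The 12 genes at 5 CPM or more had log2 fold changes of -0.052 to 0.034, with 95% intervals within -0.12 and 0.13. COX7A2, the widely expressed form of subunit 7A, was at 79.3, 78.6 and 78.6 CPM in knockdown and 81.4, 83.4 and 80.3 CPM in scrambled samples. These did not overlap, with a log2 fold change of -0.052 (adjusted p = 0.267). COX7B, another small subunit, was at 86.7, 86.9 and 97.8 CPM in knockdown and 88.0, 88.2 and 89.0 CPM in scrambled samples (0.034, adjusted p = 0.598). Its highest value was in knockdown replicate 3, and without that replicate the log2 fold change was -0.026. Leaving out scrambled replicate 1, 2 or 3 left the direction as it was.

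Complex IV was represented by the widely expressed subunit forms. COX4I1 was at 41.5 CPM per kb in knockdown and 42.0 in scrambled cells, against 0.0074 and 0.021 for COX4I2, the form known from lung. COX6A1 was at 95.6 CPM per kb in knockdown and 98.1 in scrambled cells. COX6A2 and COX7A1, the heart and muscle forms, had 0 counts in all knockdown libraries, and 4 and 1 counts over all scrambled libraries. COX7B2 had 18 counts in knockdown and 13 in scrambled libraries, and COX8C had 2 in each. COX6B1 was at 169.8 CPM per kb in knockdown and 167.1 in scrambled cells, and its testis form COX6B2 at 0.070 and 0.054. NDUFA4, once assigned to complex I and now counted with complex IV, was at 28.7 CPM per kb in knockdown and 29.01 in scrambled cells, and its hypoxia-linked paralog NDUFA4L2 at 0.21 and 0.22. COX7A2L, which takes part in joining complexes into larger assemblies, was at 13.0 and 12.8 CPM per kb. COX8A had the highest level of complex IV, 244.8 CPM per kb in knockdown and 252.0 in scrambled cells, though 34.5% of its exon bases are shared with another annotated gene on the same strand. COX6C had the lowest level of those at 5 CPM or more, 6.56 CPM per kb in knockdown and 6.46 in scrambled cells.

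**Figure D3:**
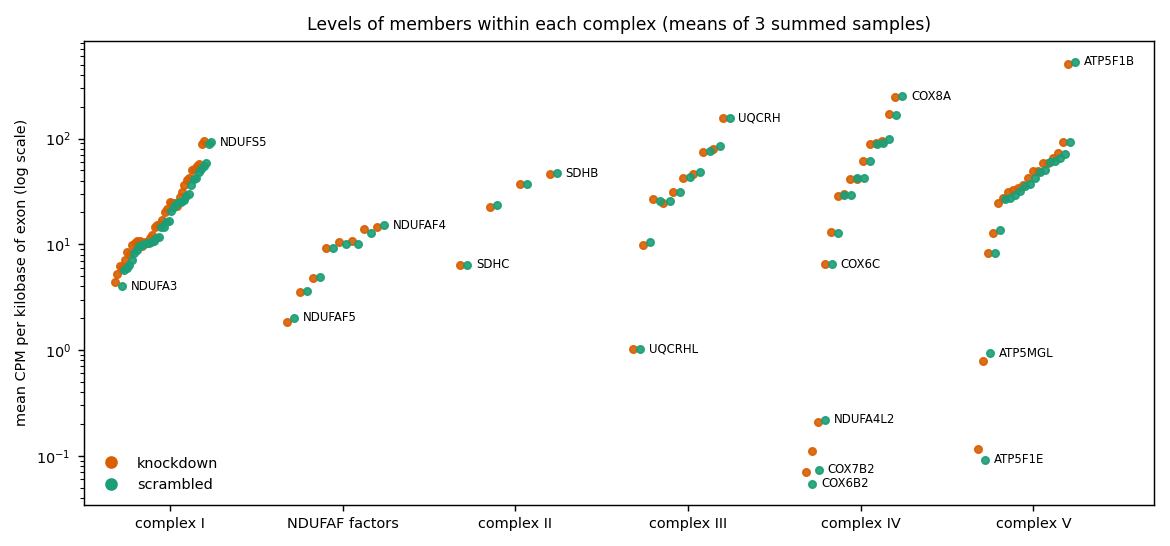
Level of members in CPM per kilobase of exon (log y axis), by complex along the x axis, with knockdown left of scrambled. Points are means over 3 summed samples. COX4I2, COX6A2, COX7A1 and COX8C, with levels near 0, and the read-through loci are not shown. ATP5F1B stands highest at 505.5 in knockdown and 531.2 in scrambled cells. The tissue forms of complex IV that are shown, such as COX7B2 (0.11 and 0.074), lie far below the widely expressed forms.

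Complex V, the ATP synthase, had 3 of its 19 genes lowered and 1 raised (7.49% and 11.1% of all genes were), with a median of -0.014. In the F1 head, where ATP is made, both major subunits fell. ATP5F1B, the catalytic beta subunit, was at 1182, 1176 and 1164 CPM in knockdown and 1238, 1242 and 1219 CPM in scrambled samples. The groups did not overlap, and the log2 fold change was -0.071 (SE 0.021, edgeR adjusted p = 0.0224). ATP5F1A, the alpha subunit, was at 371.7, 370.4 and 373.6 CPM in knockdown and 394.5, 394.1 and 386.0 CPM in scrambled samples. It did not overlap either, with -0.074 (SE 0.024, adjusted p = 0.0315). As percentages, ATP5F1B fell by 4.82% and ATP5F1A fell by 5.02%.

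Leaving out single samples ended both calls in several cases. ATP5F1B did not pass without knockdown replicate 2 (adjusted p = 0.0645) or scrambled replicate 1 (0.107), 2 (0.150) or 3 (0.0574), and its p over 18 alternatives ran from 2.34e-07 to 0.150. ATP5F1A did not pass without knockdown replicate 1 (0.0757) or 2 (0.100) or scrambled replicate 1 (0.140), 2 (0.170) or 3 (0.0656), with a range of 1.51e-06 to 0.170. The other head subunits ATP5F1C, gamma, and ATP5F1D, delta, were at -0.014 (adjusted p = 0.794) and 0.031 (adjusted p = 0.570).

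ATP5F1E, the epsilon subunit of the head, was counted at only 0.588 ± 0.0109 CPM in knockdown and 0.470 ± 0.0624 CPM in scrambled cells (SD, n = 3 each), 117 and 100 counts in all. The table also lists the read-through locus SLMO2-ATP5E, with 0 counts, and 23.2% of the exon bases of ATP5F1E are shared with TUBB1 on the other strand. Its count is therefore uncertain, and its log2 fold change of 0.33 (SE 0.21) did not pass (adjusted p = 0.321).

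The membrane ring that turns with proton flow is built from subunit c, a single mature protein encoded by ATP5MC1, ATP5MC2 and ATP5MC3. All 3 genes lay below 0 and 1 fell. ATP5MC1 was at 66.3, 67.0 and 61.3 CPM in knockdown and 70.1, 72.0 and 70.1 CPM in scrambled samples, which did not overlap (log2 fold change -0.12, SE 0.036, edgeR adjusted p = 0.0168). It did not pass without scrambled replicate 1 (edgeR adjusted p = 0.0545) or 2 (0.105), or with only the first technical libraries (0.137), and p over 18 alternatives began at 1.60e-05. ATP5MC3 was at 407.6, 399.5 and 390.5 CPM in knockdown and 419.7, 418.4 and 416.8 CPM in scrambled samples, again without overlap. Its log2 fold change was -0.068 (SE 0.024, adjusted p = 0.0565); it passed in 10 of 18 alternatives, among them without knockdown replicate 1 (0.0438) or 3 (0.00466), and over the 18 adjusted p ran from 0.000131 to 0.241. ATP5MC2 was at -0.029 (adjusted p = 0.530).

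Of the counts of these 3 genes, ATP5MC1 took 9.83%, 10.0% and 9.54% in knockdown samples and 10.1%, 10.4% and 10.2% in scrambled samples. ATP5MC2 took 29.7%, 30.2% and 29.6% in knockdown and 29.1%, 29.5% and 28.96% in scrambled samples. ATP5MC3 took 60.4%, 59.8% and 60.8% in knockdown and 60.7%, 60.2% and 60.8% in scrambled samples. The ATP5MC1 share was lower in every knockdown sample than in any scrambled sample, the ATP5MC2 share higher, and the ATP5MC3 shares overlapped. Genes of subunit c are alike in sequence and have processed copies, so how reads were divided is uncertain.

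ATP5IF1 encodes a small protein that blocks the synthase when it runs in reverse and hydrolyses ATP. It was at 68.8, 69.4 and 69.6 CPM in knockdown and 66.1, 61.7 and 65.4 CPM in scrambled samples. All knockdown values lay above all scrambled values, with means of 69.3 ± 0.399 and 64.4 ± 2.35 CPM (SD, n = 3 each) in knockdown and scrambled cells, and a log2 fold change of 0.11 (SE 0.033, edgeR adjusted p = 0.0294). The call was lost without knockdown replicate 2 (0.0869), without scrambled replicate 1 (0.0508), 2 (0.242) or 3 (0.0620), and with only the first technical libraries (0.228), over a range of 0.000188 to 0.242 in all alternatives.

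The 4 peripheral stalk genes (ATP5PB, ATP5PD, ATP5PF and ATP5PO), whose products hold the head still against the ring, had log2 fold changes of -0.043 to 0.0065, and the 5 small membrane subunits (ATP5ME, ATP5MF, ATP5MG, ATP5MJ and ATP5MK) of -0.086 to 0.036. None of these 9 passed by edgeR or DESeq2, and 1 of them, ATP5MJ, was lower at an unadjusted p below 0.05. ATP5PB was at 306.6, 306.2 and 327.0 CPM in knockdown and 315.3, 311.9 and 308.3 CPM in scrambled samples, which overlapped. ATP5F1B had the highest level per kilobase of complex V and ATP5MF the lowest at 5 CPM or more, 8.31 CPM per kb in knockdown and 8.23 in scrambled cells.

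**Figure D4:**
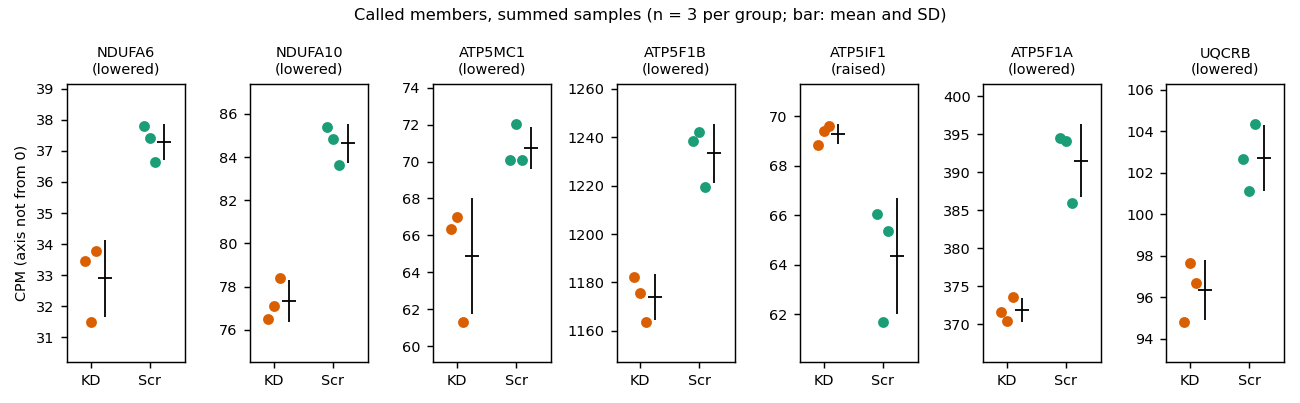
CPM of the 7 members that passed the test, 1 point per summed sample (knockdown left of scrambled, n = 3 per group), with mean and SD beside the points and y axes that do not start at 0. For each of the 7 genes the groups do not overlap; 6 are lower in knockdown samples and ATP5IF1 is higher.

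No difference between complexes was tested. Their median log2 fold changes were -0.0046 (I), -0.010 (II), -0.033 (III), -0.0036 (IV) and -0.014 (V), and -0.019 for the NDUFAF factors. Under GC correction the lowered members numbered 5, 1, 5, 1 and 4 in complexes I to V and 2 among NDUFAF factors, and without knockdown libraries 3_2 and 3_3 they numbered 5, 0, 5, 1, 7 and 2 in the same order. Raised members numbered 1, 0, 0, 0, 1 and 2 with GC correction, and 4, 0, 0, 0, 2 and 0 with the same libraries left out. Of all genes, 17.0% fell and 15.2% rose with GC correction. With those libraries left out, 15.5% of all genes fell and 16.5% rose.

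**Figure D5:**
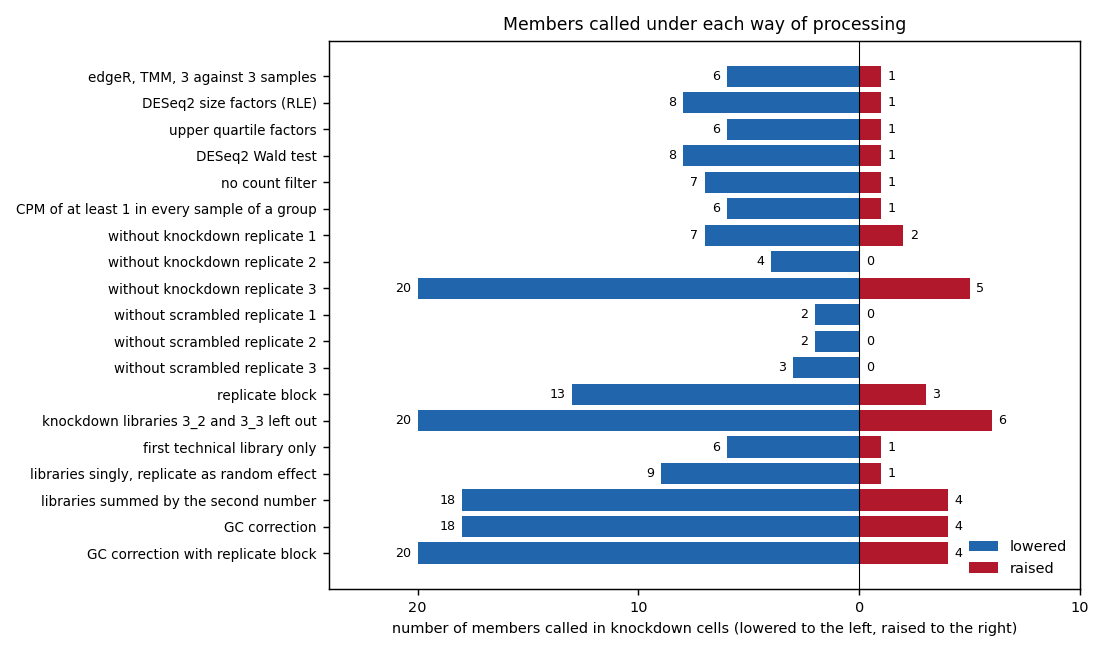
Number of members called lowered and raised (x axis) under each way of processing (y axis). Lowered members run from 2 to 20 and raised members from 0 to 6, with 6 and 1 in the analysis reported here.

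Of the 13 subunits encoded in mitochondrial DNA 5 rose and 1 fell, with a median of 0.097, and 12 lay above 0. Of all genes 11.1% rose and 7.49% fell. ND4, a complex I membrane subunit, was at 2475, 2481 and 2741 CPM in knockdown and 2286, 2366 and 2422 CPM in scrambled samples. The groups did not overlap (log2 fold change 0.12, SE 0.031, edgeR adjusted p = 0.00742). Mitochondrially encoded COX2 and COX3, core subunits of complex IV, rose by 0.12 and 0.14 (adjusted p = 0.00799 and 0.0322). ND6, the subunit encoded on the opposite mitochondrial strand, fell to 237.7 ± 3.32 CPM in knockdown cells, against 251.6 ± 7.36 CPM in scrambled cells (SD, n = 3 each; -0.082, adjusted p = 0.0385). ND6 passed in 10 of 18 alternatives, with p from 2.52e-05 to 0.441, and did not pass without knockdown replicate 1 or 2, without scrambled replicate 1, 2 or 3, with upper quartile scaling, with libraries entered singly or with sums by the second number. ND4, COX2 and COX3 passed in 13 of 18 alternatives each, with p of up to 0.176, 0.173 and 0.196. Knockdown replicate 3 was highest for ND4. Without libraries 3_2 and 3_3 the median was 0.025, with 4 raised and 1 lowered (16.5% and 15.5% of all genes were). Over all genes 1454 of 15893 rose without knockdown replicate 1. Without scrambled replicate 1 or 2, 1127 of 15891 and 1190 of 15885 rose. Among the 13 mitochondrially encoded genes the number raised was 9 without knockdown replicate 1, 1 without scrambled replicate 1 and 2 without scrambled replicate 2. It was 2 by DESeq2, 7 without a count filter, 3 with the first technical libraries only, 1 with libraries summed by the second number of their names, 0 with libraries entered singly in limma-voom, and 0 under GC correction, where these genes had no GC value and took no correction. Of all genes 9.57% rose by DESeq2 and 15.2% with GC correction. Without a count filter 1790 of 23225 rose, and 1180 of 13926 with the first technical libraries only. With sums by the second number 2589 of 15674 rose, and 1872 of 15678 with libraries entered singly. The 13 mitochondrially encoded genes took 2.38%, 2.41% and 2.65% of counts in knockdown samples and 2.27%, 2.33% and 2.39% in scrambled samples.

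Among 48 further assembly factors of the respiratory complexes, 4 fell and 1 rose (7.49% and 11.1% of all genes did), median -0.0080. Of these 5, BCS1L, TTC19 and LYRM7 act at the step where complex III receives its Rieske protein. BCS1L, which inserts that protein, was at 42.6, 41.7 and 38.6 CPM in knockdown and 46.1, 46.6 and 46.3 CPM in scrambled samples (log2 fold change -0.18, SE 0.038, edgeR adjusted p = 0.00203). TTC19, which acts after insertion, was at 37.4, 35.3 and 37.7 CPM in knockdown and 41.5, 41.8 and 41.1 CPM in scrambled samples (-0.17, SE 0.037, adjusted p = 0.00193). Neither gene's groups overlapped. LYRM7, a chaperone of the Rieske protein, rose by 0.11 (adjusted p = 0.0223), though its groups overlapped. COA7 and COX19, both factors for complex IV, fell by 0.13 and 0.17 on the log2 scale (adjusted p = 0.00489 and 0.0174). Without libraries 3_2 and 3_3, 9 fell and 1 rose (15.5% and 16.5% of all genes did). With GC correction 8 fell and 2 rose (17.0% and 15.2% of all genes did). Without scrambled replicate 1 or 2, 4 fell and 0 rose, and without scrambled replicate 3, 3 fell and 1 rose. Over all genes 628 of 15891, 623 of 15885 and 738 of 15942 fell without scrambled replicate 1, 2 or 3. In the same order 1127, 1190 and 1241 rose.

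Of 19 genes for coenzyme Q, cytochrome c and the enzymes that feed electrons to coenzyme Q, 2 rose and none fell. Among all genes 11.1% rose and 7.49% fell. At an unadjusted p below 0.05 edgeR found 1 of the 19 lower, and DESeq2 called none of them lowered. COQ8B, a kinase-like protein of coenzyme Q synthesis, averaged 17.9 ± 0.455 CPM in knockdown and 15.5 ± 0.466 CPM in scrambled cells (SD, n = 3 each; log2 fold change 0.20, edgeR adjusted p = 0.00362). GPD2, the glycerol-3-phosphate dehydrogenase that reduces coenzyme Q, averaged 55.0 ± 1.87 CPM in knockdown and 49.5 ± 0.990 CPM in scrambled cells (0.15, adjusted p = 0.00383). CYCS, cytochrome c itself, was at -0.011 (adjusted p = 0.838).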

How the data were processed

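RNA from K562 cells was sequenced in 18 libraries. The authors' deposited table holds raw counts per gene symbol, which per the submitters' processing notes came from Trim Galore, STAR and featureCounts on GRCh38; their versions, the annotation and the strand setting were not stated there, so reads of antisense overlaps may be mixed. Groups came from sample titles. The first number of a library name was taken as the biological replicate, and its 3 technical libraries were summed, giving 3 against 3 samples. If that reading of the names is wrong, p-values measure technical spread only. With libraries entered singly, limma's consensus correlation among libraries of the same first number was 0.076. These libraries were thus little more alike than others of their group, and the reason was not tested. The test was edgeR's, version 4.0.16 in R 4.3.3 (filterByExpr, TMM factors, robust quasi-likelihood fit, Benjamini-Hochberg adjustment over all 15678 genes), and CPM uses TMM-scaled totals. Genes with an adjusted p below 0.05 were called.

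Levels per kilobase, GC content and overlaps used exons of GENCODE release 29, whose GC values matched 96.3% of tested genes. Levels were divided by the length of all annotated exons of a gene joined, unless the longest annotated transcript is named. Of the members, 21 share 20% or more of their exon bases with other genes. Alternatives used DESeq2 1.42.0, limma 3.58.1, other scaling, filters and libraries, and a GC correction (loess, span 0.3). The procedure was tested on simulated counts, and the outcome is not given here. Figures used Python 3.11.15 and matplotlib 3.10.9.

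Named were all called members; per class, the largest rise and fall at 5 CPM or more and the highest and lowest level per kilobase; paralog groups; and up to 3 called genes of each pathway list. The members and lists, and the alternatives without libraries 3_2 and 3_3 and with GC correction, were chosen with earlier results of these data known. Other members, COX19, LYRM7 and CYCS of the lists, and the cell type markers given with values were named after their values were seen. The values of 1 member are not reported here.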

Additional observations from a re-analysis of the deposited data

How the results depend on the processing

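The number of members lowered, 6 in the reported analysis, was 20 without knockdown libraries 3_2 and 3_3, 18 with libraries summed by the second number of their names, 18 with GC correction and 20 with GC correction and the replicate block. The number raised, 1 in the reported analysis, was 6, 4, 4 and 4 under the same settings in that order. Over all genes tested, 1175 fell and 1745 rose in the reported analysis. In the same order of settings, 2426, 2389, 2669 and 2671 genes fell and 2589, 2589, 2386 and 2366 rose. Leaving out each replicate in turn gave 2 to 20 lowered and 0 to 5 raised members. Over all genes it gave 623 to 2280 lowered and 1127 to 2482 raised. Scaling by RLE or upper quartile, DESeq2, both count filters, the first technical libraries only and single libraries in limma-voom gave 6 to 9 lowered and 1 raised, which was NDUFB7 in place of ATP5IF1 with the first technical libraries. All 6 lowered members stayed lowered under every alternative that kept all replicates, except that ATP5MC1 was lost with the first technical libraries only. The cause of these differences was not tested.

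Same-numbered knockdown and scrambled replicates deviated together with correlations of 0.074, 0.004 and 0.087 across genes. Replicates of unlike number gave -0.11 to 0.053. Whether the numbers pair the samples was not tested. The replicate block gave 13 lowered and 3 raised members, and 10 raised mitochondrially encoded subunits (8 together with GC correction). Over all genes the block alone gave 1772 lowered and 2213 raised. Knockdown replicate 3 correlated best with scrambled replicate 3, and knockdown replicate 1 with scrambled replicate 1, but knockdown replicate 2 with scrambled replicate 1 (0.053).

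The direction turned, with values near 0, for NDUFAF2 (-0.0005 with the first technical libraries only), SDHD (-0.0062 without knockdown replicate 3 and -0.0082 without scrambled replicate 1, in a range of -0.0082 to 0.0225 over replicates left out) and COX7B (-0.026 without knockdown replicate 3, in a range of -0.026 to 0.0635, -0.0065 without knockdown libraries 3_2 and 3_3 and -0.0019 with the first technical libraries only). Of the other results for single genes, 533 kept direction and side of the threshold, 55 passed in addition and 54 no longer passed. For the 80 uncalled members at 5 CPM or more, 95% intervals on the log2 scale reached -0.26 (NDUFAF5) and 0.27 (NDUFA3) at their widest.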

Other observations

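Genes beside the respiratory chain in energy metabolism moved in both directions. Of 18 genes of the tricarboxylic acid cycle and pyruvate dehydrogenase, 2 rose and 1 fell in knockdown cells, with a median log2 fold change of -0.020. Among all genes 11.1% rose and 7.49% fell. IDH2, the mitochondrial NADP-dependent isocitrate dehydrogenase, was at 82.2, 82.8 and 79.6 CPM in knockdown and 69.2, 69.3 and 68.7 CPM in scrambled samples. The groups did not overlap, and the log2 fold change of 0.24 (SE 0.031, edgeR adjusted p = 1.05e-05) was larger in size than that of any nuclear-encoded member at 5 CPM or more. SUCLG2, a subunit of succinyl-CoA synthetase, averaged 39.3 ± 1.02 CPM in knockdown and 34.5 ± 0.253 CPM in scrambled cells (SD, n = 3 each; 0.19, adjusted p = 0.000702). DLST, a subunit of the 2-oxoglutarate dehydrogenase complex, averaged 77.3 ± 1.32 CPM in knockdown and 85.1 ± 1.37 CPM in scrambled cells (-0.14, adjusted p = 0.00296). With knockdown libraries 3_2 and 3_3 left out the list had 2 raised and 4 lowered, and without knockdown replicate 3 it had 2 raised and 6 lowered. Of all genes, 16.5% rose and 15.5% fell with these libraries left out. Without knockdown replicate 3, 2482 of 15955 genes rose and 2280 fell.

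Of 12 tested regulators of mitochondrial biogenesis, all lay below 0 (49.2% of all genes did), with a median log2 fold change of -0.055. Of the 12, 2 fell (7.49% of all genes did). None of them rose by edgeR, at an unadjusted p below 0.05 or by DESeq2. TFB2M, a transcription factor of mitochondrial DNA, averaged 44.2 ± 1.09 CPM in knockdown and 48.1 ± 0.131 CPM in scrambled cells (SD, n = 3 each; -0.12, edgeR adjusted p = 0.0154). PPRC1, a coactivator related to PGC-1alpha, averaged 125.2 ± 4.26 CPM in knockdown and 135.1 ± 2.85 CPM in scrambled cells (-0.11, adjusted p = 0.0167). With GC correction 8 of the 12 fell (17.0% of all genes did), with 11 below 0. Without knockdown libraries 3_2 and 3_3, 5 fell (15.5% of all genes did), with 10 below 0. Without scrambled replicate 1 or 2 none fell, and without scrambled replicate 3 only 1 did. Over all genes 628 of 15891, 623 of 15885 and 738 of 15942 fell without scrambled replicate 1, 2 or 3.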
